A study of Homo sapiens with 24 samples.

Results

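Respiratory complex I is described here through 42 genes, namely its nuclear subunits, the acyl carrier NDUFAB1, the related pair NDUFA4 and NDUFA4L2 and the assembly factors NDUFAF1 to NDUFAF4. They were chosen by gene symbol, each read from its brightest probe set, and all 42 were found among the 18239 genes tested on 24 Affymetrix arrays. HCT116, a human line grown from a colon carcinoma, was the source of the RNA, and the study asks how estrogen receptor beta bears on the response of such cells to hypoxia. Parental cells carried no added gene. ESR2 cells carried full-length ESR2 behind a HaloTag, delivered by a lentiviral vector with GFP and puromycin resistance, and were used as a selected population with GFP in most cells, not as 1 clone; a vector control is not among the groups. Each cell type was sampled in normoxia and in hypoxia (an incubator flushed with nitrogen and CO2), without treatment or with 10 nM 17β-estradiol, an estrogen that binds the receptor. There were 8 groups of 3 arrays. Cells given estradiol were kept without phenol red and on stripped serum; for the other groups the sources used here name no medium, and they give no length of hypoxia.

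Complex I is the large L-shaped enzyme that takes electrons from NADH, hands them to ubiquinone and pumps protons out of the mitochondrial matrix. Its matrix arm holds the flavin and the iron-sulfur clusters, its membrane arm holds the proton pumps, and most of the remaining subunits are accessory proteins that hold these parts together. Its core membrane subunits are encoded by mitochondrial DNA and are not among these genes. Assembly factors join the arms and are absent from the finished enzyme. Hypoxic cells are known to divert pyruvate from mitochondria through PDK1 and to remove mitochondria through BNIP3. NDUFA4L2 is known in other cells as a hypoxia-induced gene that lowers complex I activity. NDUFA4 was named as a complex I subunit and was later assigned to complex IV, for which reason both genes stand in the array annotation as COXFA4 and COXFA4L2.

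All values below are RMA log2 signals, and a difference of 1 is a doubling. A gene passed the test when its limma p, adjusted by Benjamini-Hochberg over all 18239 genes, was under 0.05. Of the 42 probe sets 40 had a mean over all arrays above 4.10, the median of all values. NDUFA4L2, with 3.22, and NDUFA13, with 3.27, lay below it. Replicates are labelled only by number, so p-values measure the spread between these arrays, which may be technical, and 3 arrays a group limit the precision.

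Libraries were checked before the comparisons. PDK1, which blocks pyruvate entry, rose 6.10-fold in untreated parental cells under hypoxia and 3.74-fold in untreated ESR2 cells. ESR2 signal was 3.47 ± 0.11 (SD, n = 3) in normoxic parental cells and 4.51 ± 0.44 in normoxic ESR2 cells. In hypoxia the levels were 3.43 ± 0.11 against 4.07 ± 0.11 without estradiol and 3.48 ± 0.07 against 3.93 ± 0.02 with it, so that both hypoxic ESR2 groups lay below 4.10. Of 9 colon epithelial markers, 7 lay above 4.10 in every group, and VIL1 and CDX1 lay below it. All 8 fibroblast markers lay below 4.10 in every group, as did 5 of 7 blood cell markers; CD68 ran from 5.17 to 7.23 and HBB from 5.09 to 5.58 over the group means. The 3′ minus 5′ signal of control probe sets, a measure of how far labelling reached along the RNA, set apart replicate 2 of untreated normoxic parental cells at 4.34 (the other arrays of its group had 2.60 and 2.65). It was 3.74 ± 0.30 in estradiol-treated hypoxic ESR2 cells and 2.10 ± 0.10 in untreated ones. Main counts of members that rest on these arrays are given below without the first of them or with this index as a covariate. Counts of the other gene lists are given from the main fit only. In RNA of whole cultures, fewer cells of a type and less RNA per cell cannot be told apart.

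In hypoxic parental cells, complex I genes moved in both directions, with more falls than rises. Of the 42 genes, 12 fell and 5 rose, or 40.5% against 37.5% of all genes tested (21.2% fell and 16.4% rose). The median difference was -0.11 for the 42 genes and 0.00 for all genes. The share that passed the test was therefore near that of the array, and 1 member changed by more than 2-fold. Of the 12 falls, 3 were among the 4 assembly factors, 4 among the 15 matrix-arm members, 3 among the 11 of the far membrane arm and 1 among the 9 of its near part (NDUFC2), and the last was NDUFA4.

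**Figure D1:**
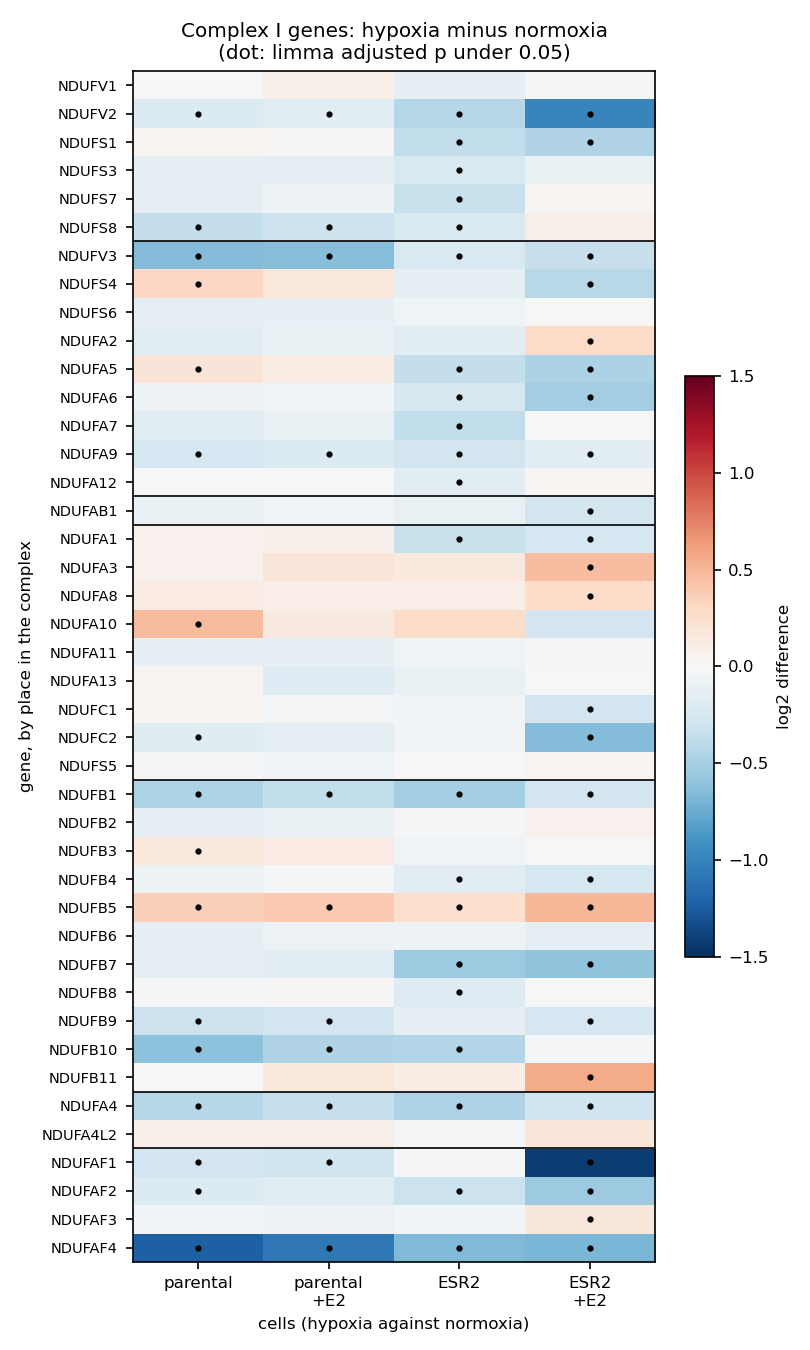
Log2 difference, hypoxia minus normoxia, of the 42 genes (rows, by place in the complex) in parental and ESR2 cells without and with estradiol (columns), each from 3 arrays against 3. Dots mark an adjusted p under 0.05; NDUFAF4 is blue in all 4 columns and NDUFB5 is red in all 4.

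NDUFAF4, an assembly factor that acts on the matrix arm, had the largest fall of the set. Its signals in untreated normoxic parental cells were 9.48, 9.88 and 9.42, and those in hypoxia were 8.38, 8.41 and 8.32. The groups did not overlap, and the gene fell by 1.22 (SE 0.09, 2.33-fold, adjusted p = 1.02e-10). The array at 9.88 is the one set apart by its control probe sets. Its other probe sets fell by 1.31 and, for a dim one with a mean of 3.78, by 0.64. NDUFAF1, a factor of early membrane-arm assembly, fell by 0.29 (SE 0.08), and NDUFAF2, which joins late, fell by 0.21 (SE 0.07). NDUFAF3, the partner of NDUFAF4, had -0.04 and did not pass.

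In the matrix arm, NDUFV3, a small accessory subunit beside the flavin site, had 8.62, 8.71 and 8.66 in normoxia and 8.03, 8.01 and 7.99 in hypoxia. It fell by 0.65 (SE 0.08, 1.57-fold, adjusted p = 1.44e-07). Its other 2 probe sets, at means of 5.96 and 4.78, had 0.02 and 0.35 and did not pass, so the fall holds for the brightest probe set and not for the gene as a whole. NDUFS8, a core iron-sulfur subunit, fell by 0.36 (SE 0.08), while its dimmer probe set had 0.02. NDUFA9, which binds near the ubiquinone site, had 9.76, 9.78 and 9.75 in normoxia and 9.50, 9.49 and 9.51 in hypoxia. It fell by 0.27 (SE 0.05, adjusted p = 0.000255). NDUFV2, a core iron-sulfur subunit, fell by 0.21 (SE 0.06).

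NDUFS4, an accessory subunit that stabilises the matrix arm, went the other way. It had 10.31, 10.31 and 10.28 in normoxia and 10.60, 10.64 and 10.59 in hypoxia, without overlap, and rose by 0.30 (SE 0.06, adjusted p = 0.00046). NDUFA5, an accessory subunit at the joint of the arms, rose by 0.19 (SE 0.07). The other core matrix-arm members were between -0.15 for NDUFS7 and 0.04 for NDUFS1 and did not pass.

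In the membrane arm, NDUFB10, an accessory subunit on its intermembrane face, had 10.57, 10.92 and 10.63 in normoxia and 10.16, 9.98 and 10.15 in hypoxia. It fell by 0.61 (SE 0.08, 1.53-fold, adjusted p = 5.55e-07). NDUFB1 went from 10.76, 10.92 and 10.70 to 10.35, 10.30 and 10.36 and fell by 0.46 (SE 0.06), and NDUFB9 fell by 0.33 (SE 0.05). All 3 are accessory subunits of the far end of the arm, where NDUFB5 lies too.

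NDUFB5 rose. Its signals were 10.00, 10.13 and 10.06 in normoxia and 10.46, 10.41 and 10.39 in hypoxia, a rise of 0.35 (SE 0.06, 1.28-fold, adjusted p = 2.12e-05), and its second probe set rose by 0.44. NDUFA10, a subunit of the near end of the arm, had the largest rise, 0.47 (SE 0.13), from 6.37, 5.81 and 6.44 to 6.66, 6.72 and 6.65. The lowest of these values is the array set apart, and without that array NDUFA10 no longer passed, nor did NDUFC2, NDUFB3 and NDUFAF2. Without it 13 members passed in place of 17, all of them among the 17.

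Of the NDUFA4 pair, NDUFA4 went from 11.76, 12.08 and 11.83 in normoxia to 11.48, 11.43 and 11.47 in hypoxia. It fell by 0.43 (SE 0.07, 1.35-fold, adjusted p = 3.2e-05), and its second bright probe set fell by 0.39. NDUFA4L2 had 3.22, 3.14 and 3.32 in normoxia and 3.25, 3.32 and 3.34 in hypoxia, with overlapping groups. Its difference was 0.08 (95% interval -0.11 to 0.26, adjusted p = 0.569). A signal this low lies near the floor of the array, where changes are compressed, and NDUFA4L2 has 1 probe set here.

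**Figure D2:**
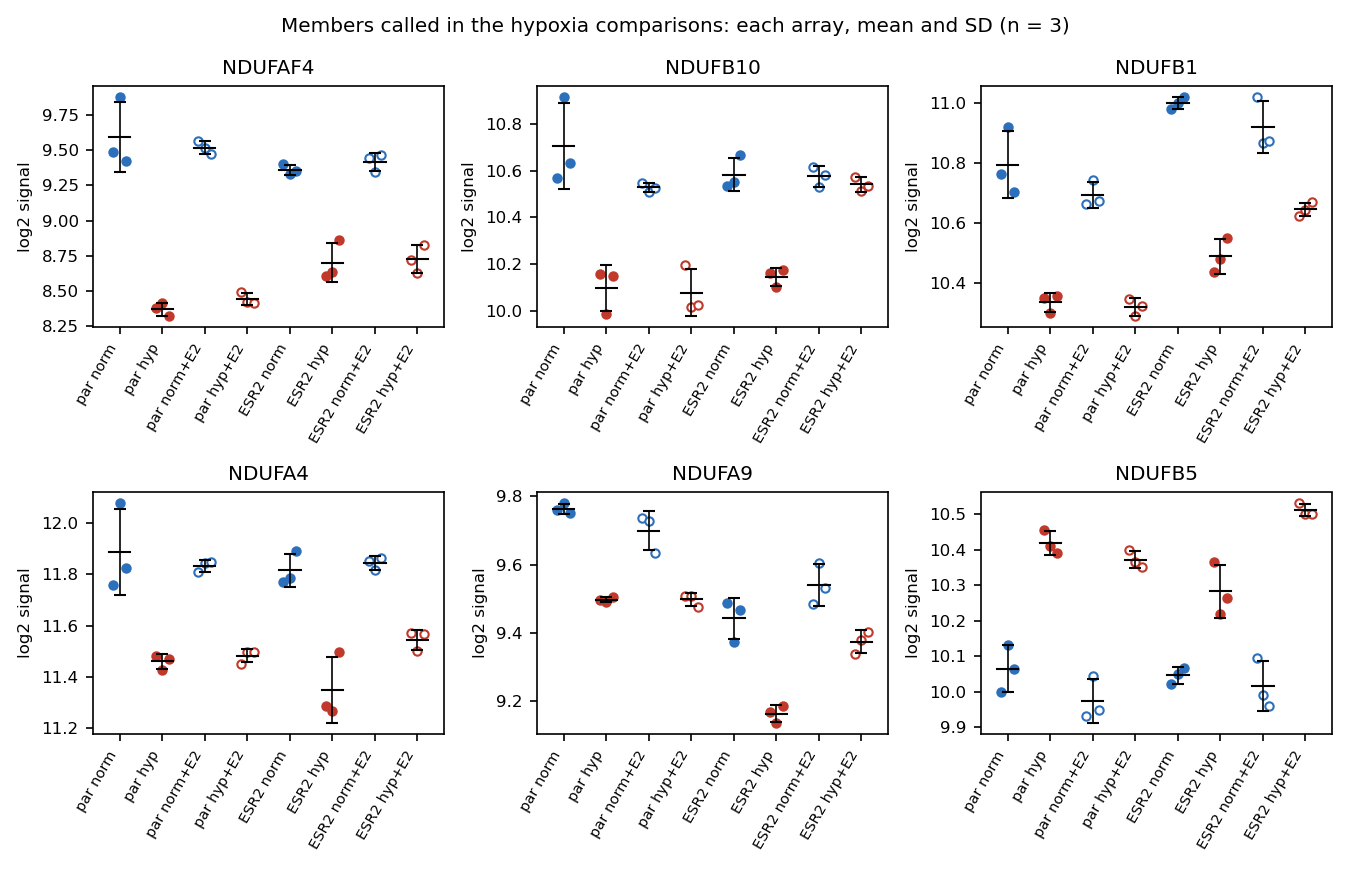
Log2 signal of 6 members on each array, by group (blue normoxia, red hypoxia, open circles with estradiol, par for parental), with mean and SD of 3 arrays; each panel has its own axis. NDUFB5 is higher and the other 5 are lower in hypoxia, except NDUFB10 in estradiol-treated ESR2 cells, where it had -0.03.

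With estradiol present in both oxygen conditions, 11 members passed in parental cells, 1 higher and 10 lower (26.2% against 34.8% of all genes, 16.1% higher and 18.7% lower). The median difference was -0.09, against 0.00 for all genes. All 10 falls were also falls without estradiol, and these comparisons use separate arrays. The share of all genes whose falls recur is not given here, so this overlap is not set against the array. The array set apart is in the untreated comparison and not in this one. NDUFAF4 had 9.56, 9.51 and 9.47 in normoxia and 8.50, 8.43 and 8.42 in hypoxia and fell by 1.07 (SE 0.09, adjusted p = 1.09e-09). NDUFV3 fell by 0.64 (SE 0.08), NDUFB10 by 0.45 (SE 0.08), NDUFB1 by 0.37 (SE 0.06) and NDUFA4 by 0.35 (SE 0.07). NDUFB5 was the 1 rise, at 0.40 (SE 0.06). NDUFA4L2 had 0.09 (95% interval -0.10 to 0.27).

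The 250 bases before the annotated start are shown for NDUFAF4 and NDUFA10, which had the largest fall and rise in untreated hypoxic parental cells, and for NDUFA4 and NDUFA4L2, the pair of which only the first fell there. They were read from RefSeq (GRCh38.p14), all on the minus strand and read 5′ to 3′. The windows are chr6:96897892-96898141 for NDUFAF4, chr7:10940154-10940403 for NDUFA4, chr2:240025343-240025592 for NDUFA10 and chr12:57240763-57241012 for NDUFA4L2, which has another start in the table. Capitals mark the core letters of the hypoxia response element (ACGTG or, on the other strand, CACGT) and an ETS site of the kind bound by GABP, a regulator of respiratory genes (CCGGAAG or CTTCCGG).
NDUFAF4: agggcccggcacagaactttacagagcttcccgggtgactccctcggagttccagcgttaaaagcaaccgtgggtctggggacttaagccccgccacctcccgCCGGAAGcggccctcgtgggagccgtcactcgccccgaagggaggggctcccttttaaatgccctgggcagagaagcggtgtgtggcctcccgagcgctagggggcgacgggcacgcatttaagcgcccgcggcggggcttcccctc
NDUFA4: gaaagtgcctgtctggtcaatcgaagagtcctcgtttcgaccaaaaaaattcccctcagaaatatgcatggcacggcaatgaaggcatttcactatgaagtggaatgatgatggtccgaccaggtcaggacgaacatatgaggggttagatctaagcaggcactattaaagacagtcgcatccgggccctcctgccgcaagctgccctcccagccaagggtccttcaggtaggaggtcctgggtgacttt
NDUFA10: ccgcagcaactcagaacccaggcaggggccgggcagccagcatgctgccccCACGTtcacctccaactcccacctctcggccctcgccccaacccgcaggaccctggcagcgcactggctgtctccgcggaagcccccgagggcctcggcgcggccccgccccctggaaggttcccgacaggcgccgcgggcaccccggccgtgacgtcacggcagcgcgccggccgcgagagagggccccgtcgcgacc
NDUFA4L2: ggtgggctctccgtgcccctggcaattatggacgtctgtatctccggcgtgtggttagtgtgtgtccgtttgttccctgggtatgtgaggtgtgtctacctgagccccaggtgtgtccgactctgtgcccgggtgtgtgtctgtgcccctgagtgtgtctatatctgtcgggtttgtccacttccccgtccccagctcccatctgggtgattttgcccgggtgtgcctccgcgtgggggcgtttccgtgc

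NDUFAF4 held the ETS letters once, 147 bases before the start, and NDUFA10 held the ACGTG form of the hypoxia core once, 199 bases before it. Neither NDUFA4 nor NDUFA4L2 held either of these marked sets of letters in this window. Windows of 300 bases (250 before and 50 after the start) were matched for 38 members; NDUFB5, NDUFB9, NDUFC2 and NDUFS5 had none. The ACGTG form of the hypoxia core stood in 9 of the 38 (23.7%) and in 24.9% of 27305 genes. The E-box CACGTG, which overlaps that core, stood in 3 members (7.89%, against 8.77%), the ETS letters in 6 (15.8%, against 12.2%) and the consensus palindrome of NRF1 in 2, NDUFA8 and NDUFB4 (5.26%, against 1.52%). Of the 10 members with a window that fell in untreated hypoxic parental cells, 1 held the ACGTG form and 1 the ETS letters. A match is a description of these letters and not of a bound site.

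In hypoxic ESR2 cells, most changes were falls, among them 5 of 6 in the core of the matrix arm. Without estradiol 20 members fell and 1 rose, or 50% against 32.6% of all genes tested. Among all genes 18.2% fell and 14.4% rose, and the median difference was -0.16 for the 42 genes against -0.06 for all. Of the 9 accessory matrix-arm members 6 fell, of the 9 in the near membrane arm 1 and of the 11 in its far part 5. The control index fell from 2.71 ± 0.41 to 2.10 ± 0.10 between these groups. With it as a covariate 17 members passed, 16 of them the same, and its part in the result was not tested beyond that. Under every alternative 12 of the 20 falls and the 1 rise held. Of the core matrix-arm falls, only that of NDUFV2 held under every alternative.

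NDUFB7, an accessory subunit of the far membrane arm, had 9.52, 9.61 and 9.72 in normoxic ESR2 cells and 9.03, 9.01 and 9.16 in hypoxic ones. It fell by 0.55 (SE 0.07, 1.46-fold, adjusted p = 6.83e-07). In parental cells it had -0.14 and did not pass. NDUFS1, the largest core subunit and carrier of several iron-sulfur clusters, had 9.30, 9.08 and 9.12 in normoxia and 8.75, 8.77 and 8.87 in hypoxia and fell by 0.37 (SE 0.08, adjusted p = 0.00061). Of its other 4 probe sets 3 fell, by 0.24 to 0.38, and in parental cells none of the 5 passed.

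NDUFAF4 fell in these cells too, from 9.40, 9.33 and 9.35 to 8.61, 8.63 and 8.86, by 0.66 (SE 0.09, 1.58-fold, adjusted p = 4.41e-06). NDUFB1 fell by 0.51 (SE 0.06), NDUFA4 by 0.47 (SE 0.07), NDUFB10 by 0.44 (SE 0.08) and NDUFV2 by 0.43 (SE 0.06). NDUFV3 fell by 0.23 (SE 0.08) by its brightest probe set, whereas its other 2 probe sets rose by 0.40 and 0.55. NDUFB5 was again the 1 rise, from 10.02, 10.05 and 10.07 to 10.37, 10.22 and 10.26, by 0.24 (SE 0.06). Its second probe set had 0.13 and did not pass. NDUFA4L2 had -0.02 (95% interval -0.20 to 0.17). Of the 12 members that fell in untreated parental cells 9 fell here, and of the 20 that fell here 9 had fallen there. For this overlap, too, no share of all genes is given.

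The change itself differed between the cell types for 10 members (23.8%, against 30.7% of all genes), 7 with a lower and 3 with a higher value in ESR2 cells (14.3% and 16.4% of all genes). NDUFA5 had 9.30, 9.45 and 9.36 in normoxic and 8.98, 8.98 and 9.09 in hypoxic ESR2 cells, a fall of 0.36, against a rise of 0.19 in parental cells; the difference of the changes was -0.55 (SE 0.10, adjusted p = 0.000113). NDUFS4 had -0.15 in ESR2 cells, which did not pass, against a rise of 0.30, and the difference was -0.46 (SE 0.09). Of the 5 core matrix-arm falls in ESR2 cells, those of NDUFS1 and NDUFV2 differed from parental cells by this test. For NDUFB7 the difference was -0.41 (SE 0.09), for NDUFS1 -0.41 (SE 0.11) and for NDUFA1, a small membrane-arm subunit needed for assembly, -0.40 (SE 0.08). These 5 genes had lower signal in hypoxic ESR2 cells than in any other untreated group, by the group means.

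In the other direction, NDUFAF4 fell less in ESR2 cells, by a difference of 0.56 (SE 0.13, adjusted p = 0.00148). NDUFV3 differed by 0.42 (SE 0.11) and NDUFB9 by 0.20 (SE 0.07). NDUFA4 differed by -0.04 and NDUFA4L2 by -0.09 (95% interval -0.35 to 0.17). Leaving out the parental array set apart gave 9 members, 8 of them the same; NDUFB3 and NDUFB9 were lost. Centring arrays on their medians gave 4 members higher and 5 lower in place of 3 and 7.

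**Figure D3:**
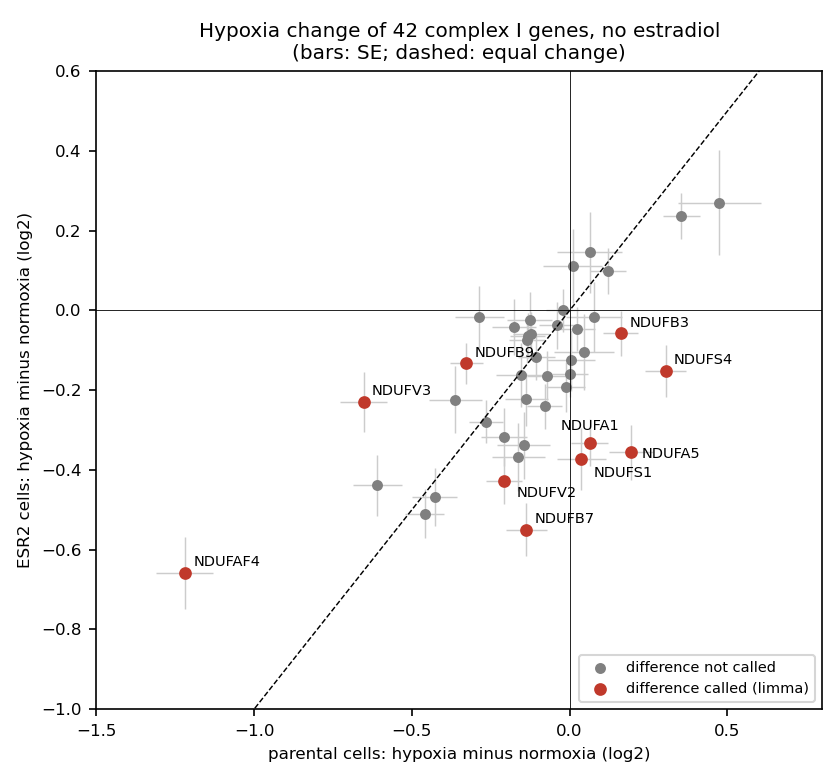
Log2 difference, hypoxia minus normoxia, of each of the 42 genes in untreated parental cells (x axis) and untreated ESR2 cells (y axis), with SE bars and a dashed line of equal change. The 10 red points differ between the cell types by limma; NDUFAF4, NDUFV3 and NDUFB9 lie above the line and the other 7 below it.

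With estradiol, 25 members passed in hypoxic ESR2 cells, 6 higher and 19 lower (59.5% against 52.3% of all genes, 29.6% higher and 22.6% lower). Their median was -0.12, while that of all genes was 0.08. The control index was 2.69 ± 0.34 in the normoxic and 3.74 ± 0.30 in the hypoxic group, so that a shift of the index goes along with this comparison. With the index as a covariate 25 members passed, and 21 when the array set apart was also left out. Under every alternative 14 of the 19 falls and 3 of the 6 rises held. NDUFAF1 had 7.91 to 8.08 on the 3 arrays in normoxia and 6.40, 6.54 and 6.77 in hypoxia, and fell by 1.43 (SE 0.08, 2.69-fold, adjusted p = 3.37e-13). NDUFV2 went from 10.83, 10.81 and 10.81 to 9.79, 9.78 and 9.92 and fell by 0.99 (SE 0.06, adjusted p = 1.26e-12). NDUFAF4 fell by 0.69 (SE 0.09), NDUFC2, of the near membrane arm, by 0.65 (SE 0.07) and NDUFB7 by 0.60 (SE 0.07).

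The rises in this comparison were led by NDUFB11, a small membrane-arm subunit, at 0.56 (SE 0.09), NDUFB5 at 0.50 (SE 0.06) and NDUFA3 at 0.46 (SE 0.10). NDUFA2 rose by 0.28 (SE 0.08) and NDUFA8 by 0.27 (SE 0.06), but neither of these 2 calls held under every alternative. NDUFA4 fell by 0.30 (SE 0.07), and NDUFA4L2 had 0.18 (95% interval 0.00 to 0.37, adjusted p = 0.0844). The change differed from that in estradiol-treated parental cells for 20 members, 7 higher and 13 lower (47.6%, against 38.6% of all genes, 20.6% higher and 18.1% lower). NDUFAF1 differed by -1.13 (SE 0.11) and NDUFV2 by -0.83 (SE 0.08). With the index as a covariate 15 members differed, 2 higher and 13 lower, and 8 of the 13 lower and 2 of the 7 higher calls held under every alternative.

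Over the 4 hypoxia comparisons, which share no arrays, NDUFAF4, NDUFB1, NDUFA4, NDUFA9, NDUFV2 and NDUFV3 fell in all 4 (NDUFV3 by its brightest probe set only) and NDUFB5 rose in all 4. NDUFA4, NDUFAF4 and NDUFB5 passed in all 4 under every alternative processing tried. The difference was negative in all 4 for 18 members. NDUFS4 and NDUFA5 rose in untreated parental cells and fell in ESR2 cells, NDUFS4 with estradiol and NDUFA5 with and without it. The 8 members that passed in none were NDUFV1, NDUFS6, NDUFA11, NDUFA13, NDUFS5, NDUFB2, NDUFB6 and NDUFA4L2. No share of all genes is given for these counts over 4 comparisons, so they do not set complex I apart from the array. The levels of NDUFS5 stayed between 11.04 and 11.31 over all 24 arrays and those of NDUFA11 between 10.89 and 11.12, the narrowest ranges of the set.

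ESR2 cells were also set against parental cells at the same oxygen. In normoxia without estradiol 6 members passed, 2 higher and 4 lower (14.3% against 18.6% of all genes, 9.76% higher and 8.86% lower; medians -0.05 and -0.01). NDUFA9 had 9.49, 9.37 and 9.47 in ESR2 cells against 9.76, 9.78 and 9.75 in parental cells and differed by -0.32 (SE 0.05, adjusted p = 0.00016). NDUFAF3 had 9.28, 9.30 and 9.34 against 9.57, 9.58 and 9.67 and had a difference of -0.30 (SE 0.06). NDUFV3 had -0.39 (SE 0.08) and NDUFAF2 -0.32 (SE 0.07), while NDUFA5 was higher by 0.27 (SE 0.07) and NDUFB1 by 0.20 (SE 0.06). NDUFA4 had -0.07 and NDUFA4L2 0.01 (95% interval -0.17 to 0.20).

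The count of members in normoxia depended on how the spread was modelled. It ran from 3 with only the compared groups in the fit to 13 with an intensity trend, and was 11 (2 higher, 9 lower) with arrays centred on their medians. Without the parental array set apart it was 7 (3 higher, 4 lower), and these held all 6 of the main fit. NDUFA9 and NDUFAF3 passed under every alternative.

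In hypoxia 17 members differed between ESR2 and parental cells, 4 higher and 13 lower (40.5% against 40.4% of all genes, 20.4% higher and 20% lower; medians -0.11 and -0.06). The share was that of the array. NDUFS4 had 10.11, 10.06 and 10.30 in ESR2 cells against 10.60, 10.64 and 10.59, a difference of -0.45 (SE 0.06, 1.37-fold, adjusted p = 4.91e-06). NDUFAF2 had 8.03, 8.03 and 8.20 against 8.51, 8.46 and 8.58, a difference of -0.43 (SE 0.07). NDUFA7, an accessory matrix-arm subunit, had 9.37, 9.31 and 9.48 against 9.88, 9.77 and 9.80, a difference of -0.43 (SE 0.08).

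NDUFS7, the core subunit that holds the last iron-sulfur cluster before ubiquinone, lay between 8.987 and 9.002 on the 3 arrays, against 9.51, 9.34 and 9.36, with a difference of -0.41 (SE 0.08), and NDUFS1 had -0.40 (SE 0.08). The 4 higher members were NDUFAF1 by 0.40 (SE 0.08), NDUFAF4 by 0.33 (SE 0.09), NDUFB9 by 0.20 (SE 0.05) and NDUFB1 by 0.15 (SE 0.06). All 4 assembly factors thus passed, NDUFAF1 and NDUFAF4 higher and NDUFAF2 and NDUFAF3 lower. NDUFA4 had -0.11 and NDUFA4L2 -0.08 (95% interval -0.26 to 0.10).

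Of the 17 members, 14 passed under every alternative, and the 3 others were NDUFAB1, NDUFB1 and NDUFB9. NDUFC2 was not among the 17, with -0.03 by its brightest probe set (mean 9.84). Its dimmer probe sets, at means of 5.53 and 4.23, were higher in hypoxic ESR2 cells by 1.40 and 1.56, so the array gives no single value for that gene.

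**Figure D4:**
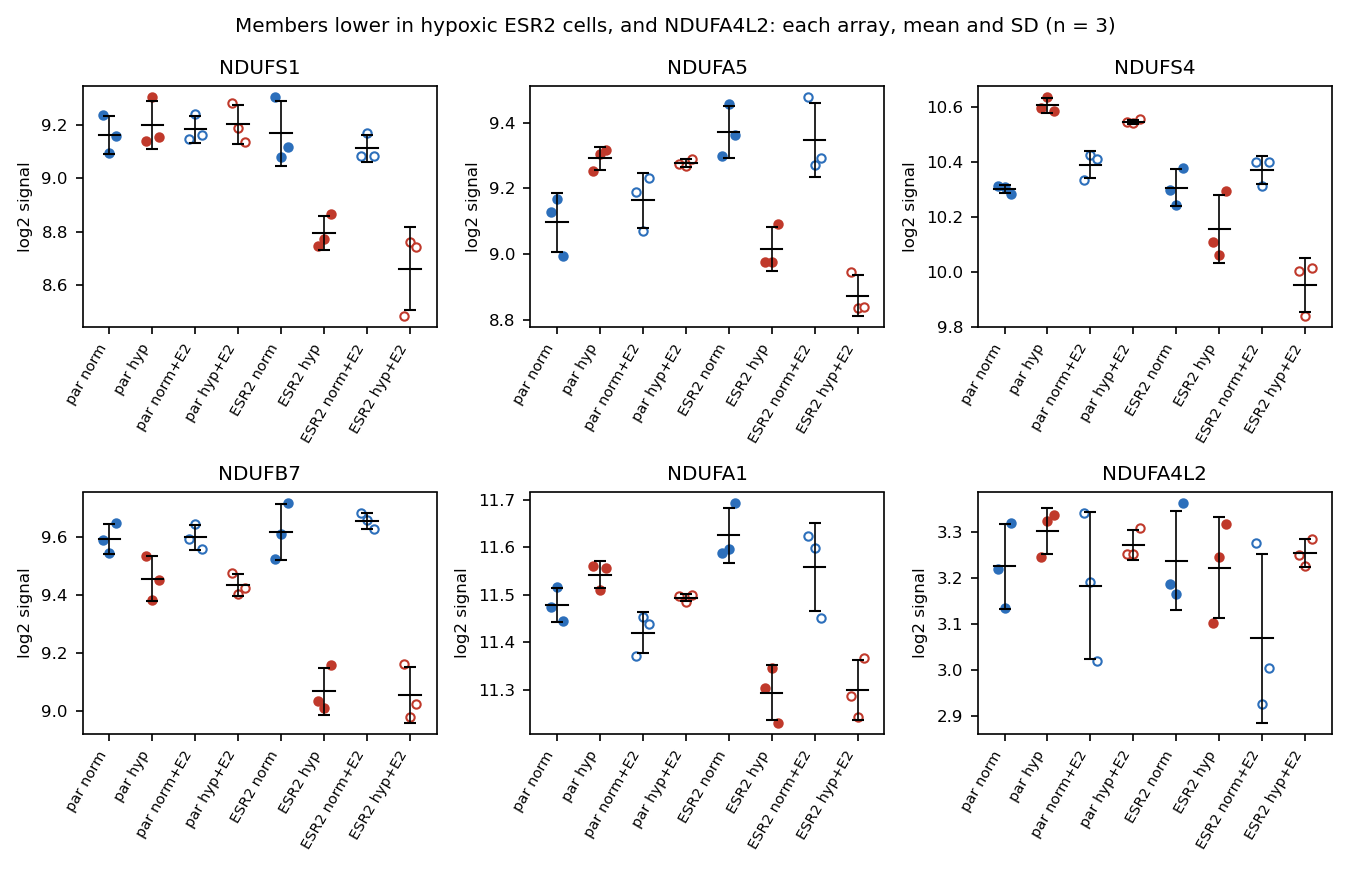
Log2 signal of NDUFS1, NDUFA5, NDUFS4, NDUFB7, NDUFA1 and NDUFA4L2 on each array, by group, with mean and SD of 3 arrays and an axis for each panel. The first 5 have their lowest group means in hypoxic ESR2 cells (the 2 rightmost red groups), and the NDUFA4L2 groups overlap between 2.93 and 3.36.

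With estradiol, 6 members differed between the cell types in normoxia, 2 higher and 4 lower (14.3% against 13.7% of all genes, 8.45% higher and 5.22% lower). NDUFAF3 had -0.33 (SE 0.06), NDUFA13 -0.29 (SE 0.10), NDUFV3 -0.27 (SE 0.08) and NDUFS6 -0.19 (SE 0.06), while NDUFAF1 had 0.25 (SE 0.08) and NDUFB1 0.23 (SE 0.06). NDUFA13 was read from a probe set near the floor of the array, and its call was lost under 9 alternatives. Of these calls, that of NDUFAF3 held under every alternative. Leaving out replicate 1 of the parental group took the count to 1, and leaving out parental replicate 2, ESR2 replicate 1 or ESR2 replicate 3 took it to 3. In hypoxia with estradiol 20 members differed, 7 higher and 13 lower (47.6% against 47.7% of all genes, 27.8% higher and 19.8% lower). NDUFAF1 had -0.88 (SE 0.08), NDUFV2 -0.73 (SE 0.06), NDUFS4 -0.60 (SE 0.06), NDUFC2 -0.59 (SE 0.07) and NDUFAF2 -0.59 (SE 0.07), and the highest were NDUFA2 at 0.57 (SE 0.08) and NDUFB10 at 0.46 (SE 0.08). The value of NDUFC2 is that of its brightest probe set, and averaging its 3 probe sets turned it to 0.46. With the control index as a covariate 17 members passed (3 higher, 14 lower), and 13 when the array set apart was also left out; 6 of the 13 lower and 3 of the 7 higher calls held under every alternative. NDUFA4 had 0.01 and 0.06 and NDUFA4L2 -0.11 and -0.02 in normoxia and hypoxia.

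Cells given estradiol were set against untreated cells in 4 settings. No medium is named for the untreated cells, so estradiol and any change of medium or serum cannot be told apart here. In parental cells no member passed in normoxia or hypoxia, nor did any in normoxic ESR2 cells, by limma. At an unadjusted p under 0.05 there were 3, 0 and 0 members, and with array weights or with an intensity trend there was none either. Of all genes 0.011%, 0.0164% and 0% passed. The differences of the 42 genes lay between -0.24 (NDUFB11) and 0.24 (NDUFA13) in normoxic parental cells, between -0.16 (NDUFA10) and 0.07 (NDUFAF4) in hypoxic parental cells and between -0.17 (NDUFA4L2) and 0.14 (NDUFAF1) in normoxic ESR2 cells. The 95% intervals reached 0.11 to 0.27 to each side, so that smaller changes could not be seen with 3 arrays a group. These intervals are not adjusted for the number of genes, so larger changes could also be missed by the adjusted test. The hypoxia change of parental cells did not differ with estradiol for any member (0.00548% of all genes did; 0 members at an unadjusted p under 0.05 and 0 with array weights or a trend).

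In hypoxic ESR2 cells 22 members passed with estradiol, 13 higher and 9 lower, or 52.4% against 57% of all genes tested (35.4% higher and 21.6% lower). The median was 0.03 for the 42 genes and 0.12 for all. This is the comparison in which the control index moved most, from 2.10 ± 0.10 to 3.74 ± 0.30. CD68 and LYZ, markers of myeloid leukocytes, and HBB, a globin gene of red cells, had their highest group means with estradiol in these cells. LYZ reached no more than 4.05 there. ITGAM, PTPRC, COL1A2, PDGFRA, PDGFRB and THY1 had their highest means there as well, all below 4.10, and the other fibroblast markers had theirs elsewhere. EPCAM, KRT18, KRT19, CLDN7 and CDX1 were highest there too. CD14, CD3E, CDH1 and VIL1 were highest in untreated hypoxic parental cells, and KRT8 and CDX2 in untreated hypoxic ESR2 cells. Passing as higher were 4 of 7 blood cell, 3 of 8 fibroblast and 4 of 9 colon epithelial markers. Another 3 epithelial markers were lower. With the index as a covariate 7 members passed, all among the 22, and 9 passed when the array set apart was also left out. How much of the difference goes with the index was not tested further.

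NDUFAF1, NDUFV2 and NDUFC2 passed under every alternative. NDUFAF1 had 7.78, 7.84 and 7.90 without and 6.40, 6.54 and 6.77 with estradiol, a fall of 1.27 (SE 0.08, 2.41-fold, adjusted p = 4.8e-12). Its second probe set fell by 1.13, and with the index as a covariate the difference was -1.36. NDUFV2 had 10.34, 10.36 and 10.51 without and 9.79, 9.78 and 9.92 with estradiol, a fall of 0.57 (SE 0.06), and had -0.65 with the covariate. NDUFC2 went from 9.80, 9.80 and 9.95 to 9.42, 9.23 and 9.15 and fell by 0.58 (SE 0.07), with -0.67 under the covariate. NDUFS1 had -0.13 by its brightest probe set and did not pass, while 3 of its 4 other probe sets fell, by 0.36 to 0.46.

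NDUFA10 fell by 0.69 (SE 0.13), but had -0.10 and did not pass with the covariate. NDUFA6 fell by 0.28 (SE 0.06) and had -0.36 with the covariate, and it did not pass when the array set apart was also left out (-0.22). The largest rises were NDUFA2 at 0.45 (SE 0.08), NDUFB11 at 0.44 (SE 0.09), NDUFA7 at 0.42 (SE 0.08), NDUFB10 at 0.40 (SE 0.08) and NDUFA3 at 0.33 (SE 0.10). With the covariate none of these 5 rises passed, and NDUFA2, NDUFB11, NDUFA7 and NDUFB10 passed again when the array set apart was also left out. NDUFA2 had 9.96, 10.01 and 9.94 without and 10.47, 10.41 and 10.37 with estradiol, and the array set apart in normoxic parental cells had 10.30 against 9.85 and 10.00 on the other arrays of its group. NDUFA4 rose by 0.20 (SE 0.07, adjusted p = 0.0247), and this was lost under 9 alternatives, while NDUFA4L2 had 0.03. The hypoxia change of ESR2 cells differed with estradiol for 16 members, 9 higher and 7 lower (38.1% against 43.8% of all genes, 25.4% higher and 18.4% lower), and for 6 with the covariate. None of those 9 higher calls held under every alternative.

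**Figure D5:**
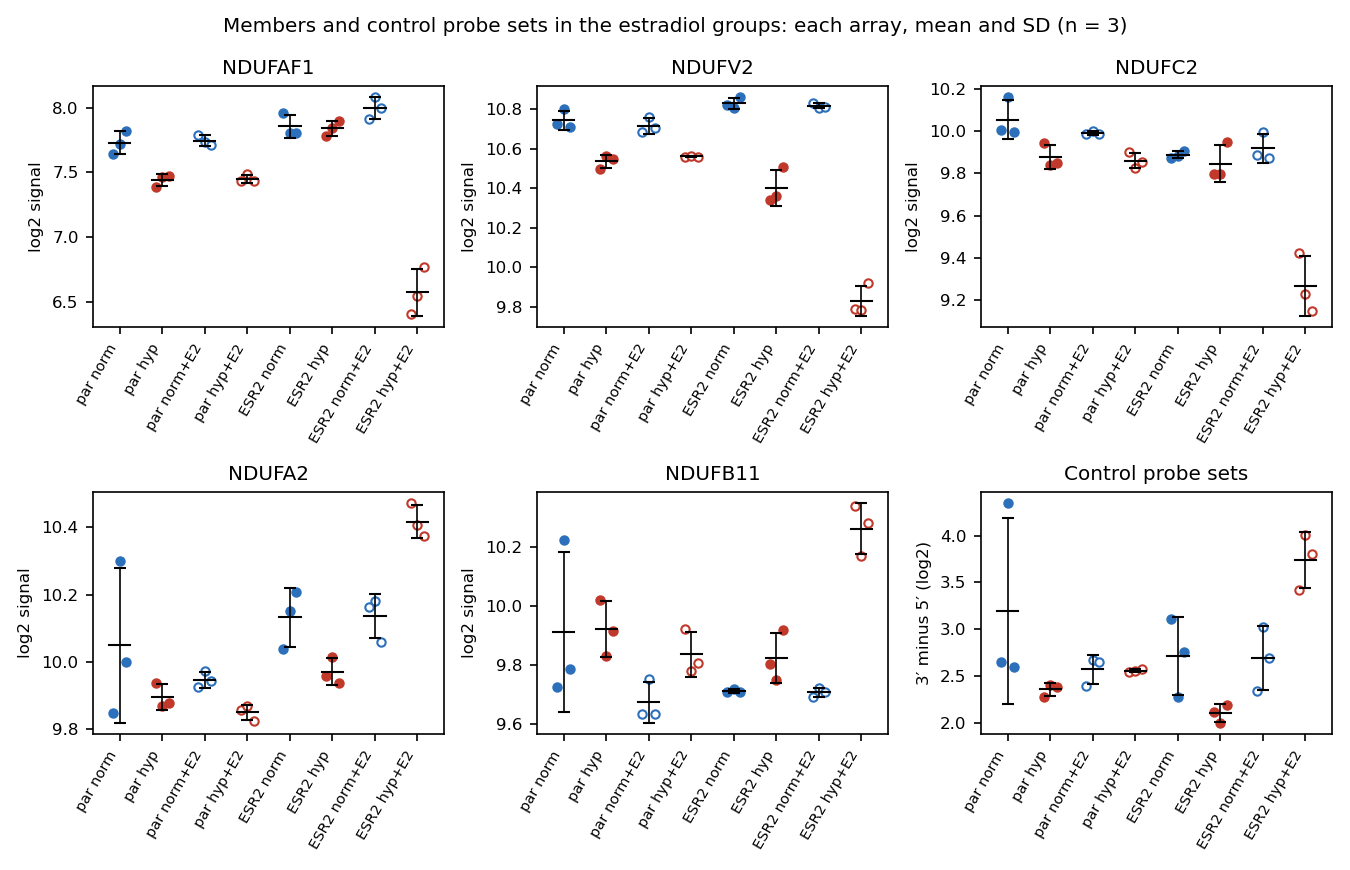
Log2 signal of 5 members on each array, by group, and the 3′ minus 5′ log2 difference of control probe sets (last panel), with mean and SD of 3 arrays. NDUFAF1, NDUFV2 and NDUFC2 are lowest, and NDUFA2, NDUFB11 and the control index have their highest means, in estradiol-treated hypoxic ESR2 cells; 1 array of untreated normoxic parental cells stands at 4.34 in the last panel.

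Other genes of the pathway were counted in lists. Of 12 further complex I assembly genes, 7 fell and none rose in untreated hypoxic parental cells (58.3%, against 37.5% of all genes; median -0.24). TMEM70, a factor of membrane-arm and ATP synthase assembly, fell by 1.35 (SE 0.05), from 10.16 ± 0.02 to 8.81 ± 0.06. AIFM1, which imports subunits with CHCHD4, fell by 0.60 (SE 0.06) and TMEM186 by 0.43 (SE 0.07). In untreated hypoxic ESR2 cells 4 fell and 2 rose (50%, against 32.6% of all genes): COA1 fell by 0.59 (SE 0.08), and TMEM186 and TIMMDC1 rose by 0.35 (SE 0.07) and 0.30 (SE 0.07). TMEM70 had -0.08 there, and the difference between the cell types was 1.27 (SE 0.07, adjusted p = 2.57e-11).

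The other complexes gave mixed counts in untreated hypoxic parental cells. In complex II, 2 of 7 genes rose and 2 fell, in complex III 1 of 12 rose and 3 fell, in complex IV 2 of 16 rose and 4 fell, and in complex V, the ATP synthase, 2 of 17 rose and 6 fell. These are 57.1%, 33.3%, 37.5% and 47.1% of the lists, beside 37.5% of all genes, so complexes III and IV lay at or below the share of the array. Assembly factors had the smallest p in complexes II and IV: SDHAF2 of complex II fell by 1.21 (SE 0.09) and SDHAF4 rose by 1.53 (SE 0.10), and SCO2 and COX11 of complex IV fell by 1.03 (SE 0.09) and 0.62 (SE 0.07). In untreated hypoxic ESR2 cells the counts of rises and falls were 2 and 3, 1 and 3, 1 and 5, and 1 and 8 for complexes II to V (71.4%, 33.3%, 37.5% and 52.9%, against 32.6% of all genes), beside 1 and 20 of 42 for complex I. The medians of the 5 complexes were -0.16, -0.09, -0.08, -0.13 and -0.14 there, and that of all genes was -0.06.

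Regulators of mitochondrial biogenesis fell in hypoxic parental cells in 8 of 13 cases and rose in 3 (84.6% passed, against 37.5% of all genes). PPRC1, a coactivator of respiratory genes, fell by 1.11 (SE 0.10), GABPB1, a subunit of the ETS factor GABP, by 0.79 (SE 0.07) and TFB2M, a mitochondrial transcription factor, by 0.87 (SE 0.09). The 3 rises were those of GABPA, the other GABP subunit, TFB1M and MYC. GABPA went from 7.04 ± 0.55 in untreated normoxic parental cells to 7.65 ± 0.05 in hypoxic ones. TFB1M went from 7.64 ± 0.10 to 7.92 ± 0.03 and MYC from 10.96 ± 0.09 to 11.28 ± 0.06. In untreated hypoxic ESR2 cells 6 fell and 1 rose (53.8%, against 32.6%), with TFB2M at -0.74 (SE 0.09), TFAM at -0.64 (SE 0.09) and GABPB1 at -0.41 (SE 0.07). GABPA had -0.65 (SE 0.17) in these cells. PPARGC1A, the best-known coactivator of this family, lay between 2.97 and 3.05 in the untreated groups and passed in none of the 4 hypoxia comparisons. Of 10 mitochondrial genes known to respond to hypoxia, 5 rose and 2 fell in parental cells, among them BNIP3 by 2.04 (SE 0.06) and PDK1. In hypoxic ESR2 cells BNIP3 rose by 1.62 (SE 0.06), less than in parental cells (difference -0.42, SE 0.09, adjusted p = 0.000954). COX4I2, the hypoxia form of a complex IV subunit, had -0.06 in parental cells and -0.07 in ESR2 cells and did not pass, with a signal of 3.40 ± 0.32 (SD, n = 3) in normoxic parental cells.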

How the data were processed

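Whole-culture RNA of 24 samples was labelled from the 3′ end and read on Affymetrix HG-U219 arrays. The deposited values are log2 signals that the authors made with RMA and the affy package, per the submitters' processing notes, and no versions are given there. Of 49386 probe sets, 93 are controls; 45253 have 1 gene symbol in the platform annotation, 1327 several and 2713 none. Each gene was read from its brightest probe set with 1 symbol (highest mean over 24 arrays), which left 18239 genes. Groups came from the labels. A limma fit (3.58.1, R 4.3.3) of 8 group means with eBayes, 16 residual degrees of freedom, gave 16 comparisons, each adjusted by Benjamini-Hochberg over all genes at 0.05; the fit was tested on simulated data. Figures and counts used Python 3.11.15, pandas 2.3.3 and matplotlib 3.10.9.

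The alternatives were renewed quantile normalization, median centring, leaving out the dimmest 1 in 3 genes, the mean of probe sets, every probe set tested, array weights, eBayes with an intensity trend and robust prior, only the compared groups, a replicate block, the control index as a covariate and leaving out each array. Any member could be named; full statistics were for up to 5 rises and 5 falls a comparison and for NDUFA4 and NDUFA4L2, and other lists give up to 3 genes of smallest p per hypoxia comparison. The rises among the biogenesis regulators in parental cells are named beside these, with GABPA in both cell types. The members and lists were chosen with earlier results of these data known. Promoter windows are from RefSeq (GRCh38.p14), matched by symbol. SDHB and UQCRFS1 were not analysed here.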

Additional observations from a re-analysis of the deposited data

Results flagged for a closer look

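The response to hypoxia differed between ESR2 and parental cells by limma for 10 members without estradiol, with all differences as ESR2 minus parental. Lower values were those of NDUFA5 (-0.55), NDUFS4 (-0.46), NDUFB7 (-0.41), NDUFS1 (-0.41) and NDUFA1 (-0.40). Higher values were those of NDUFAF4 (0.56), NDUFV3 (0.42) and NDUFB9 (0.20). NDUFB3 (-0.22) and NDUFV2 (-0.22) complete the 10.

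With estradiol 20 members differed in the same test. The lowest were NDUFAF1 (-1.13), NDUFV2 (-0.83), NDUFA5 (-0.59), NDUFS4 (-0.57) and NDUFC2 (-0.52). The highest were NDUFB10 (0.42), NDUFS8 (0.40), NDUFB11 (0.39), NDUFAF4 (0.38) and NDUFA2 (0.38).

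Within ESR2 cells the response differed between estradiol and no treatment for 16 members. The lowest were NDUFAF1 (-1.41), NDUFC2 (-0.61), NDUFV2 (-0.56), NDUFA10 (-0.56) and NDUFA6 (-0.28). The highest were NDUFB11 (0.44), NDUFA2 (0.44), NDUFB10 (0.40), NDUFS7 (0.37) and NDUFA7 (0.37). With the control index as a covariate these 5 higher values became 0.15, 0.23, 0.22, 0.27 and 0.28, and none passed, although all 5 passed when the array set apart was also left out. NDUFA10 turned to 0.037 with the covariate and did not pass, while NDUFAF1 (-1.498), NDUFC2 (-0.70), NDUFV2 (-0.64) and NDUFA6 (-0.36) passed. These differences use the same arrays as the single comparisons and are not independent of them.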

How the results depend on the processing

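Counts of members that passed moved by over 1.5 times in these cases. With array weights they were 17 for the difference of the hypoxia response without estradiol (10 in the report), 21 for hypoxia in estradiol-treated parental cells (11), 12 and 14 for ESR2 against parental cells in normoxia without and with estradiol (6 and 6) and 26 in hypoxia (17). For ESR2 cells in normoxia the count was also 11 with median centring, 13 with the trend and 3 with only the compared groups. With the control index as a covariate it was 7 for estradiol in hypoxic ESR2 cells (22) and 6 for its bearing on their hypoxia response (16). With the index and the array set apart left out, an alternative chosen after seeing the data, the counts were 9 and 9 there, 10 for ESR2 cells in normoxia with estradiol and 13 in hypoxia with estradiol (20). Median centring gave 2 higher and 9 lower for ESR2 cells in normoxia (2 and 4), 3 and 17 for hypoxia in parental cells (5 and 12), 4 and 5 for the difference of the response (3 and 7) and 6 and 8 for the bearing of estradiol on it in ESR2 cells (9 and 7).

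Leaving out 1 array at a time gave 13 to 19 members for hypoxia in parental cells and 15 to 22 in ESR2 cells, with 7 to 10 for their difference. With estradiol the ranges were 10 to 10, 23 to 26 and 16 to 19. For ESR2 against parental cells they were 5 to 12 in normoxia (12 without replicate 1 of untreated normoxic parental cells), 15 to 21 in hypoxia, 1 to 6 in normoxia with estradiol and 18 to 21 in hypoxia with estradiol. They were 19 to 22 for estradiol in hypoxic ESR2 cells, 12 to 19 for its bearing on their response and 0 to 0 in the 4 comparisons without calls.

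With the mean of probe sets the sign turned for NDUFV3 under hypoxia in ESR2 cells (0.24, and 0.12 with estradiol). It also turned for NDUFC2, to 0.13 for the difference of the response with estradiol, to 0.47 and 0.98 for ESR2 against parental cells in normoxia and hypoxia, and to 0.34 and 0.46 with estradiol. NDUFA10, for the bearing of estradiol on the response of ESR2 cells, turned to 0.037 with the index and 0.081 with the array also left out; the cause was not tested.

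The replicate block gave 16 members for hypoxia in parental cells, 19 in ESR2 cells and 8 for their difference, and moved no count by over 1.5 times. Same-numbered arrays did not deviate together (84 pairs, median r -0.017, 9 over 0.1), and 1 of 24 arrays correlated best with its own number. Dim probe sets such as those of NDUFA4L2 and NDUFA13 limit what can be seen.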
